A study of Mus musculus with 6 samples.

Results

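The endogenous opioid genes are the 7 genes of the deposited table named Pdyn, Penk, Pnoc, Oprm1, Oprd1, Oprk1 and Oprl1, that is 3 peptide precursors and 4 receptors among 35148 genes. They were taken by name, and all 7 passed the filter on low counts that left 20865 genes for testing. RNA came from the paraventricular nucleus of the hypothalamus (PVH) of mice in which both groups carry floxed Ruvbl2 (genotype Ruvbl2fl/fl). In 3 libraries the animals had received AAV2-GFP, an adeno-associated virus that carries green fluorescent protein alone, and in 3 AAV2-Cre-GFP, which adds Cre recombinase, both injected into the PVH 8 weeks earlier. The labels give neither age nor sex, nor the promoter of the virus, nor which animals a library was made from. The p-values therefore cover variation among these 6 libraries, and that variation may be technical. The series asks what RUVBL2, an ATPase of chromatin and chaperone complexes, does in synaptic plasticity.

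Opioid peptides are cut from large precursors in the secretory pathway of neurons and released from dense-core vesicles. Penk yields the enkephalins, which act mainly at the delta receptor (Oprd1) and the mu receptor (Oprm1). Pdyn yields the dynorphins, which act mainly at the kappa receptor (Oprk1), and Pnoc yields nociceptin, the ligand of the nociceptin receptor (Oprl1). All 4 receptors couple to inhibitory G proteins, which lower cyclic AMP, open inwardly rectifying potassium channels and close presynaptic calcium channels. In the PVH, dynorphin is known as a partner of vasopressin in magnocellular neurons, where it restrains hormone release, and opioid signalling in this nucleus is known for its part in feeding.

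Coding stretches of the precursors are shown because they state which peptide a transcript level stands for. The capitals mark the 15 bases that encode the opioid core, the lower-case letters its flanks, and the sequences come from GENCODE M21 transcripts of GRCm38, 5′ to 3′.
Penk, first enkephalin core (Met-enkephalin): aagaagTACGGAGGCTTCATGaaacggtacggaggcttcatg
Penk, sixth core (Leu-enkephalin): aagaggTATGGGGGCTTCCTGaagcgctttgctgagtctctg
Pdyn, dynorphin A core: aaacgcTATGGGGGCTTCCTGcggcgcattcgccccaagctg
Pdyn, dynorphin B core: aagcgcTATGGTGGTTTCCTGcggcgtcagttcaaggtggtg
Pnoc, nociceptin core: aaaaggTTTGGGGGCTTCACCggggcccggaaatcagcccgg
The 804 coding bases of Penk held 6 Met-enkephalin cores and 1 Leu-enkephalin core, the 744 of Pdyn held 3 Leu-enkephalin cores, and the 561 of Pnoc held 1 nociceptin core. The Leu-enkephalin core of Penk and the dynorphin A core of Pdyn are spelled with the same 15 bases, and that is the longest run these 2 precursors share.

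The receptors are close relatives, so a stretch around the conserved end of the seventh membrane segment shows how far reads can tell them apart. Capitals mark the bases that differ from Oprm1 in 39 coding bases of each gene.
Oprm1: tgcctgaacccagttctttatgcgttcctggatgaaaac
Oprd1: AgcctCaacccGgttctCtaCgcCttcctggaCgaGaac
Oprk1: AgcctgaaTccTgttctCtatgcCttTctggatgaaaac
Oprl1: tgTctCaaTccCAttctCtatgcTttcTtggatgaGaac
Here Oprd1, Oprk1 and Oprl1 differ from Oprm1 at 8, 6 and 9 bases. Over the whole coding sequence, pairs of receptors were identical at 67.8% to 71.0% of aligned bases, and no pair shared a run longer than 25 bases. No word of 31 bases was shared between any 2 of the 7 genes. With other genes, Penk shared 10.9% of its 31-base words, all with A830012C17Rik on the opposite strand, and the other 6 genes shared at most 1.25%.

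The targeted gene, Ruvbl2, overlapped between the groups. Its level was 8.66 ± 1.27 FPKM (fragments per kilobase of gene model, scaled to library size; SD, n = 3) with AAV2-GFP and 9.38 ± 0.240 FPKM with AAV2-Cre-GFP (edgeR adjusted p = 0.773), a value counted over the whole gene that does not single out deleted exons. The libraries are therefore called GFP-labelled and Cre-labelled, and every direction compares libraries so labelled. Total counts ran from 41890769 to 54702785 per library. The defining PVH genes Sim1, Otp, Avp, Oxt, Crh and Trh were present in every library, with a summed level of 286 to 730 CPM (counts relative to the whole library's) in the GFP-labelled and 222 to 521 CPM in the Cre-labelled group. Transcripts of other organs stood out in several libraries. The sum of 10 testis genes was 531 CPM in the first GFP-labelled library, against 2.05 CPM or less in the rest. That of 8 kidney genes was 468 and 512 CPM in the second and the third Cre-labelled library, against 45.8 CPM or less in the rest, and that of 8 muscle genes was 223 CPM in the third, against 24.2 CPM or less. Of the pituitary list, 4 of 5 genes were in the table, and their sum was 31.5 CPM in the second GFP-labelled library, most of it Gh and Prl, against 5.99 CPM or less in the rest. The sum of 6 choroid plexus and ependymal genes was 79.5 to 86.1 CPM in the GFP-labelled and 122 to 142 CPM in the Cre-labelled group. A list of 5 ribosomal and other abundant noncoding RNAs and Lars2 summed to 5248 to 5824 CPM in the GFP-labelled and to 11023 to 23052 CPM in the Cre-labelled group. Their part in the differences below was not tested.

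The opioid genes spanned a wide range of levels, and the order of the 7 genes was the same in each of the 6 libraries. Penk was highest with a mean of 30.5 FPKM over the 6 libraries, followed by Oprl1 at 23.0 and Pdyn at 11.6 FPKM. Pnoc stood at 4.23, Oprk1 at 2.69, Oprd1 at 1.49 and Oprm1 at 0.468 FPKM. Neighbours in this order had separate ranges over the 6 libraries except for Penk and Oprl1, whose ranges met at 25.5 FPKM, and for Pnoc and Oprk1 (lowest Pnoc 2.84, highest Oprk1 3.33 FPKM). The nociceptin receptor thus made up most of the receptor transcript level, 81.4% ± 1.57 of the summed FPKM of the 4 receptors in the GFP-labelled and 84.8% ± 1.82 in the Cre-labelled libraries (SD, n = 3). Levels between genes depend on the length used. The FPKM values scale with the summed exons of all transcripts of a gene, which is 8037 bases for Oprm1 and 9151 for Oprk1, while their longest annotated transcripts have 2420 and 4675 bases. Rescaled to the longest transcript, Oprm1 stood at 1.55 FPKM beside Oprd1 at 1.49, and Oprk1 at 5.26 FPKM above Pnoc at 4.23, so these 2 orders are not settled.

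**Figure D1:**
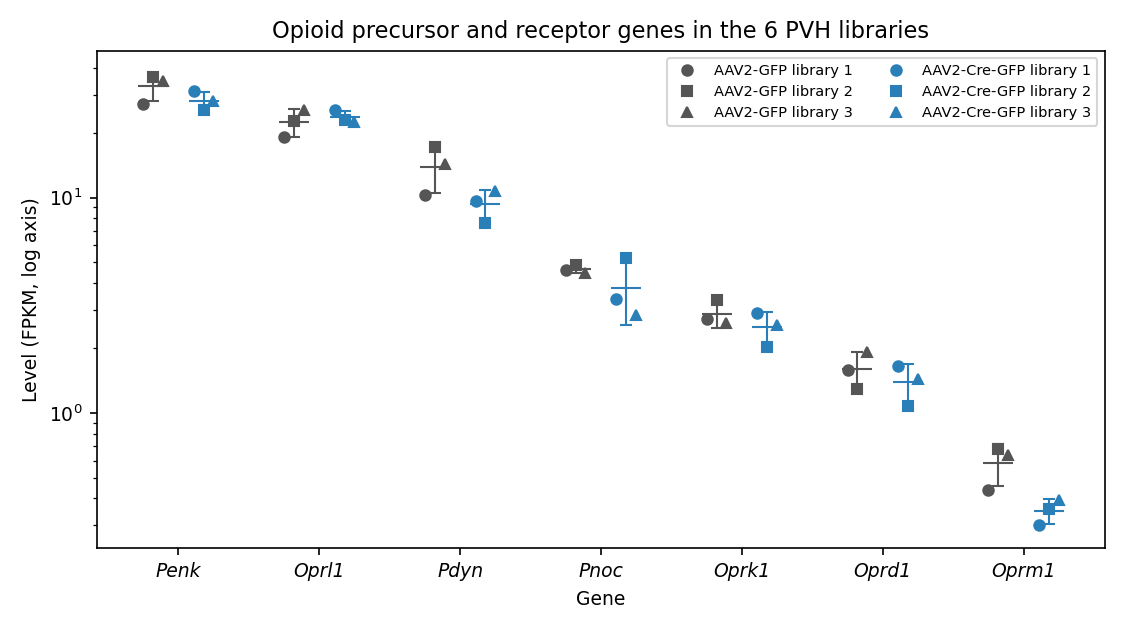
FPKM (log axis) of the 7 opioid genes in the 3 GFP-labelled (grey) and 3 Cre-labelled (blue) libraries; symbols are single libraries, horizontal marks group means and bars SD. Oprm1, between 0.300 and 0.682 FPKM, is the gene whose groups do not overlap, and Penk and Oprl1 are the most abundant.

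By edgeR's quasi-likelihood test, 0 of 7 opioid genes had an adjusted p under 0.05, beside 2 of all 20865 genes (0.00959%). At an unadjusted p under 0.05 there were 2 of 7, Oprm1 and Pdyn, beside 17.2% of all genes, and DESeq2 called 1 of 7, Pdyn, beside 8.03% of the genes it tested. The groups did not overlap for 1 of 7, Oprm1, beside 22.8% of all genes. The log2 difference (Cre-labelled minus GFP-labelled) was below 0 for 6 of 7 genes, beside 51.0% of all genes. It was below 0 for 3 of 7 when libraries were scaled to 8 pan-neuronal markers, which moved the median of all genes to 0.26. Relative to that median, Penk was at -0.25, Oprd1 at -0.24, Oprk1 at -0.23 and Oprl1 at 0.037. Without that scaling the median of the 7 was -0.26, against -0.0058 over all genes.

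**Figure D2:**
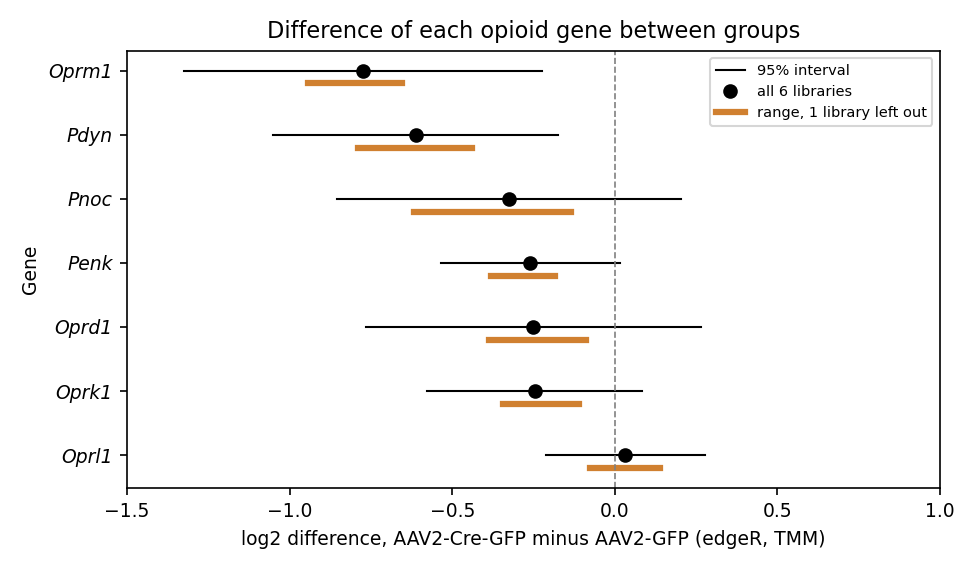
log2 difference of each opioid gene, Cre-labelled minus GFP-labelled, from edgeR with TMM scaling; points use all 6 libraries, black lines are 95% intervals and orange bars the range with 1 library left out. The intervals of Oprm1 and Pdyn lie below 0, and those of the other 5 genes include 0. Penk, Oprk1 and Oprd1 turn to just above 0 under scaling to pan-neuronal markers, which moves the median of all genes to 0.26.

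Among the precursors, Pdyn, the source of the dynorphins, had the largest difference. It stood at 10.3, 17.1 and 14.3 FPKM in GFP-labelled libraries 1 to 3 and at 9.67, 7.63 and 10.7 FPKM in Cre-labelled libraries 1 to 3. GFP-labelled library 1 lay with the Cre-labelled libraries and below the highest of them, so the groups overlapped by this library. The means were 13.9 ± 3.42 and 9.33 ± 1.56 FPKM (SD, n = 3), a log2 difference of -0.61 ± 0.19 (SE) with a 95% interval of -1.05 to -0.17, or 0.654 times the level (edgeR adjusted p = 0.175). DESeq2 called it with a log2 difference of -0.61 (adjusted p = 0.0159). The difference was -0.75 without the 3 libraries with testis, kidney or muscle transcripts. That fit has 2 libraries against 1, and the single Cre-labelled library is assumed to vary like the others. It keeps GFP-labelled library 2, the one with pituitary transcripts, and Cre-labelled library 1. The latter had the highest sum of abundant noncoding RNAs and Lars2 of all libraries, at 23052 CPM. Pdyn (ENSMUSG00000027400) is at 129686565 to 129699833 of chromosome 2, minus strand, in the table's coordinates (GRCm38).

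Penk, the enkephalin precursor and the most abundant of the 7 transcripts, stood at 27.3, 36.4 and 34.9 FPKM in the GFP-labelled and at 31.2, 25.5 and 28.0 FPKM in the Cre-labelled libraries 1 to 3. The groups overlapped through GFP-labelled library 1, which was again the lowest of its group. The log2 difference was -0.26 ± 0.12 (SE) with an interval of -0.53 to 0.015 (edgeR adjusted p = 0.314). Penk (ENSMUSG00000045573) is at 4133531 to 4138819 of chromosome 4, minus strand, and the noncoding gene A830012C17Rik on the plus strand (4138321 to 4188703) shares 233 of its 1634 exon bases. That gene had 0 to 15 counts per library against 2184 to 3255 for Penk, and without use of strand in counting, reads of the shared bases cannot be told apart. The testis transcripts were in GFP-labelled library 1, and their part in the Penk values was not tested.

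Pnoc, the nociceptin precursor, was even in the GFP-labelled libraries, at 4.61, 4.86 and 4.47 FPKM, and uneven in the Cre-labelled ones, at 3.36, 5.21 and 2.84 FPKM. Cre-labelled library 2 was thus the highest of all 6, while libraries 1 and 3 were the lowest. The log2 difference was -0.32 ± 0.23 (SE; interval -0.85 to 0.20; edgeR adjusted p = 0.513), and it was -0.62 when Cre-labelled library 2 was left out and -0.14 when library 3 was. Pnoc (ENSMUSG00000045731) is at 65400673 to 65425472 of chromosome 14, minus strand. Of the summed precursor level, Penk made up 64.0% ± 1.5 and 68.1% ± 2.14, Pdyn 26.8% ± 2.46 and 22.5% ± 2.98, and Pnoc 9.20% ± 1.5 and 9.35% ± 3.71 of FPKM in the GFP-labelled and Cre-labelled groups (SD, n = 3).

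Pomc, the precursor of beta-endorphin and of the melanocortins, is the remaining classical opioid precursor and a product of arcuate rather than PVH neurons. It stood at 1.23, 3.12 and 2.37 FPKM in GFP-labelled libraries 1 to 3 and at 19.1, 2.15 and 11.9 FPKM in Cre-labelled libraries 1 to 3. Cre-labelled libraries 1 and 3 were far above the rest and library 2 was inside the GFP-labelled range, with a log2 difference of 2.25 ± 0.69 (SE; edgeR adjusted p = 0.173). In the fit from 2 libraries against 1, whose Cre-labelled side is library 1 alone, the difference was 2.74 (edgeR adjusted p = 6.98e-06), and with scaling to pan-neuronal markers it was 2.55 (edgeR adjusted p = 0.0484). Of the 5 other arcuate markers tested, 3 were above 0 (Agrp, Npy and Tac2) and 2 below. The latter were Ghrh at -0.65 ± 0.31 and Cartpt at -0.46 ± 0.28 in log2 (SE, edgeR adjusted p = 0.344 and 0.454). Agrp stood at 0.582 to 1.26 TMM-normalised CPM (CPM scaled by edgeR's trimmed mean of M values) in the GFP-labelled libraries. It stood at 0.796 to 1.39 in the Cre-labelled ones, a narrower range than that of Pomc. The Cre-labelled libraries were in the same order for Agrp as for Pomc, but not for Npy, Tac2, Ghrh or Cartpt. Npy stood at 2.49 to 3.01 in the GFP-labelled and at 3.18 to 5.37 in the Cre-labelled libraries on the same scale, with no overlap (log2 difference 0.59 ± 0.25, SE; edgeR adjusted p = 0.283). The arcuate list, Pomc included, summed to 48.9 to 67.8 CPM in the GFP-labelled and to 45.8 to 87.9 CPM in the Cre-labelled libraries. The 87.9 CPM of Cre-labelled library 1 held 29.2 CPM of Pomc, and the 52.1 CPM of Cre-labelled library 3 held 18.2 CPM. The sum is therefore not separate from the Pomc values, and the part of arcuate tissue in them was not tested. Pituitary cells also make Pomc, and GFP-labelled library 2, with the pituitary transcripts, had the highest Pomc value of its group, a part not tested either.

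Among the receptors, Oprm1, the mu receptor bound by endorphin, enkephalin and morphine, had the largest difference and the lowest level. It stood at 0.440, 0.682 and 0.634 FPKM (181, 266 and 293 counts) in GFP-labelled libraries 1 to 3 and at 0.300, 0.357 and 0.392 FPKM (118, 151 and 204 counts) in Cre-labelled libraries 1 to 3. Every Cre-labelled library was below every GFP-labelled one, and GFP-labelled library 1 was the closest to them. The means were 0.585 ± 0.128 and 0.350 ± 0.0463 FPKM (SD, n = 3), a log2 difference of -0.77 ± 0.24 (SE) with an interval of -1.33 to -0.22, or 0.584 times the level (edgeR adjusted p = 0.173, DESeq2 adjusted p = 0.0728). From 2 libraries against 1, without those with testis, kidney or muscle transcripts, the log2 difference was -1.18. That fit too keeps the GFP-labelled library with pituitary transcripts. Its only Cre-labelled library, library 1, had the lowest Oprm1 level of all and the highest sum of abundant noncoding RNAs and Lars2. Oprm1 (ENSMUSG00000000766) is at 6758506 to 7038198 of chromosome 10, plus strand, and Ipcef1 lies within this span on the minus strand (6885796 to 7023185). The exons of these genes share 96 bases, 1.19% of those of Oprm1, and Ipcef1 stood at 1.29 ± 0.114 and 1.29 ± 0.160 FPKM, so it did not move with Oprm1.

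Like Oprm1, the other opioid receptors did not pass in either edgeR or DESeq2 with all 6 libraries. Oprd1, the delta receptor, stood at 1.58, 1.29 and 1.93 FPKM in the GFP-labelled and at 1.65, 1.07 and 1.44 FPKM in the Cre-labelled libraries 1 to 3, with library 2 the lowest of each group. Its log2 difference was -0.25 ± 0.22 (SE; interval -0.77 to 0.27; edgeR adjusted p = 0.613), and it was -0.39 when library 2 of the GFP-labelled group was left out and -0.088 when that of the Cre-labelled group was. Oprk1, the kappa receptor at which dynorphin acts, stood at 2.71, 3.33 and 2.60 FPKM in the GFP-labelled and at 2.90, 2.02 and 2.57 FPKM in the Cre-labelled libraries. The lowest of its 6 values was again in Cre-labelled library 2, and the log2 difference was -0.25 ± 0.14 (SE; interval -0.58 to 0.085; edgeR adjusted p = 0.428), running from -0.34 without Cre-labelled library 1 to -0.11 without library 2 of that group. Oprl1, the nociceptin receptor, stood at 19.0, 22.8 and 25.5 FPKM in the GFP-labelled libraries and at 25.4, 22.9 and 22.4 FPKM in the Cre-labelled libraries. The groups lay on top of each other, with a log2 difference of 0.032 ± 0.11 (SE) and an interval of -0.21 to 0.28 (edgeR adjusted p = 0.912), and the sign turned to -0.076 without GFP-labelled library 1 and to -0.0025 without Cre-labelled library 1. Oprd1 (ENSMUSG00000050511) is at 132110726 to 132144486 of chromosome 4, minus strand, Oprk1 (ENSMUSG00000025905) at 5588466 to 5606131 of chromosome 1, plus strand and Oprl1 (ENSMUSG00000027584) at 181715016 to 181720985 of chromosome 2, plus strand.

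The profiles across libraries fell into a loose pattern. The distance between genes is given here as the mean absolute difference of their log2 TMM-normalised CPM after each was centred on its own mean over the 6 libraries. Oprm1 and Pdyn were 0.15 apart, less than either was from any other opioid gene. Both were highest in GFP-labelled libraries 2 and 3, and so was Penk. Oprk1 and Penk were the closest pair of all at 0.13, whereas Pnoc was at least 0.29 from each of the other 6. Among tested genes whose mean reached 1 FPKM, the nearest to Oprm1 were Stac2 (0.081) and Ebf3 (0.095), and the nearest to Pdyn were Gm49502 (0.092) and Cabp1 (0.10). The nearest to Penk were Gm9826 (0.034) and Scn9a (0.038), to Pnoc Sema3c (0.059) and Fam89a (0.098), and to Oprd1 C130093G08Rik (0.055) and Gm38336 (0.061). Oprk1 was nearest to Gm10654 (0.022) and Zmynd19 (0.046), and Oprl1 to Taz (0.024) and Fbl (0.025). Only 1 gene lay within 0.1 of Pdyn and 3 within 0.1 of Oprm1, but 2105 did of Oprl1, whose own profile is nearly flat.

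**Figure D3:**
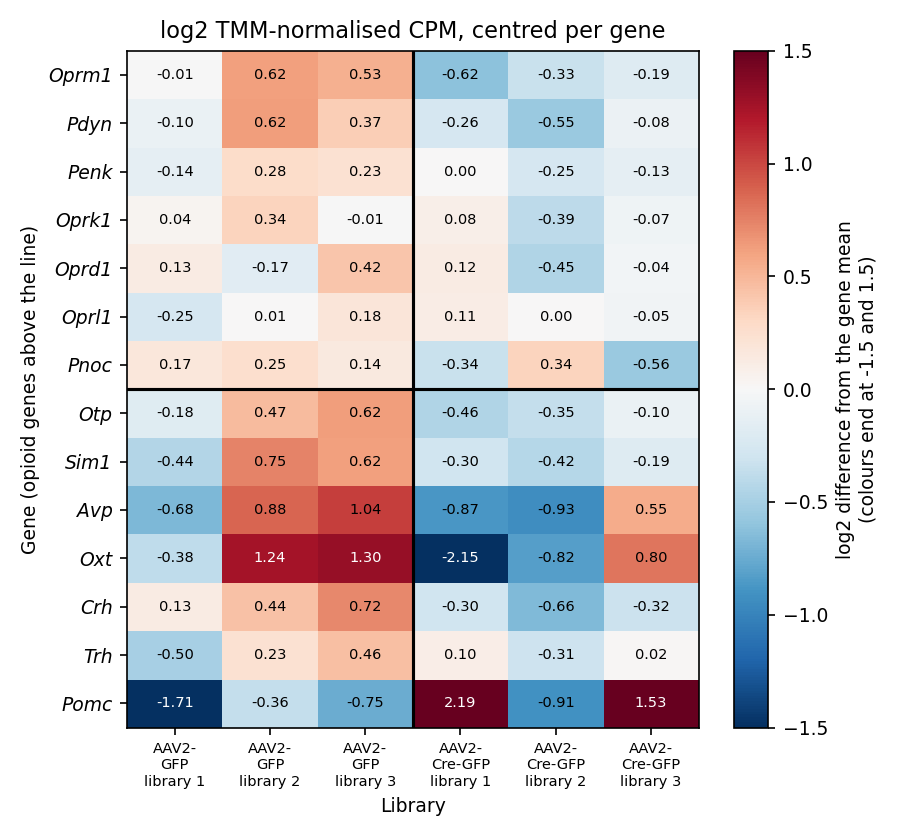
Heat map of log2 TMM-normalised CPM, centred on each gene's mean over the 6 libraries, for the 7 opioid genes (above the line) and for 6 PVH genes and Pomc; colours and numbers give the difference from the gene mean. GFP-labelled libraries 2 and 3 hold the highest values of Oprm1, Pdyn and Penk and of all 6 PVH genes, and GFP-labelled library 1 does not.

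Among the 6 PVH genes, none of which passed, Otp and Sim1 had profiles like those of Pdyn and Oprm1, and were chosen for this after the values had been seen. Trh, the thyrotropin-releasing hormone gene, did not, though it too was highest in GFP-labelled libraries 2 and 3. It stood at 49.0, 81.2 and 95.0 TMM-normalised CPM in the GFP-labelled and at 74.4, 56.1 and 70.2 in the Cre-labelled libraries 1 to 3. Crh had the smallest p of the 6 in edgeR, at a log2 difference of -0.87 ± 0.19 (SE, adjusted p = 0.104). Its groups did not overlap, at 9.39, 11.6 and 14.2 in the GFP-labelled and 6.99, 5.44 and 6.91 in the Cre-labelled libraries. Crh too was thus highest in GFP-labelled libraries 2 and 3, so Otp and Sim1 were not alone in this pattern. No ratio to Crh was taken. Otp, a transcription factor of PVH and neighbouring neuroendocrine neurons, stood at 64.8, 102 and 113 TMM-normalised CPM in GFP-labelled libraries 1 to 3 and at 53.6, 57.6 and 68.6 in the Cre-labelled ones. Pdyn stood at 34.9, 57.9 and 48.6 in the former and at 31.4, 25.6 and 35.4 in the latter on the same scale. In both genes GFP-labelled libraries 2 and 3 were above the other 4. The log2 differences of Otp and of Sim1, which is needed for PVH neurons to form, were -0.64 ± 0.19 and -0.70 ± 0.28 (SE; edgeR adjusted p = 0.170 and 0.256). Per unit of Otp, Pdyn stood at 0.512 ± 0.0731 in the GFP-labelled and 0.516 ± 0.0710 in the Cre-labelled libraries (SD, n = 3), and per unit of Sim1 at 2.37 ± 0.529 and 2.37 ± 0.202. The ratio of Oprm1 to Otp was 0.0605 ± 0.00601 and 0.0542 ± 0.00348, with overlapping groups. Penk per unit of Otp was 0.694 ± 0.106 and 0.891 ± 0.160, the other way round from its own level. These ratios were chosen after the values had been seen and have no test. In tissue RNA, fewer cells of a type and less RNA per cell cannot be told apart.

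**Figure D4:**
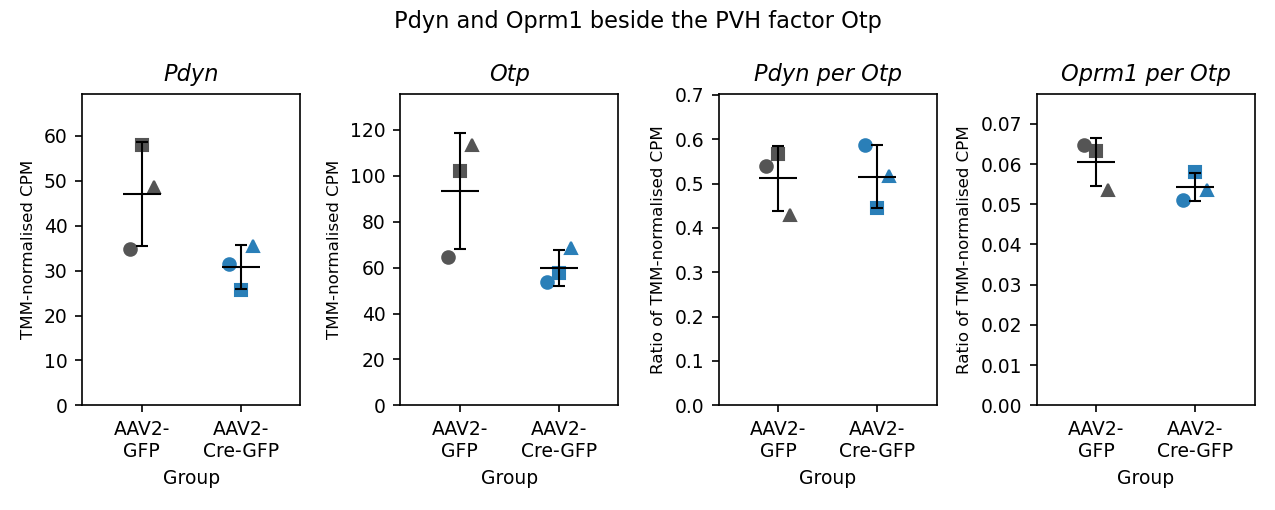
TMM-normalised CPM of Pdyn and Otp, and the ratios of Pdyn and Oprm1 to Otp, by group; symbols are libraries (circle 1, square 2, triangle 3), horizontal marks means and bars SD of 3 libraries. Pdyn and Otp are lower in the Cre-labelled group and in GFP-labelled library 1, while their ratio is 0.512 and 0.516 in the 2 groups.

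Vasopressin, which magnocellular neurons release together with dynorphin, did not follow Pdyn as closely. Avp stood at 38.8, 114 and 128 TMM-normalised CPM in the GFP-labelled and at 34.0, 32.7 and 91.4 in the Cre-labelled libraries 1 to 3. Cre-labelled library 3 was thus near the upper GFP-labelled values for Avp but not for Pdyn, and the ratio of Pdyn to Avp ran from 0.379 to 0.923 over the 6 libraries. Markers of inhibitory neurons, Gad1, Gad2 and Slc32a1, summed to 1227 to 1375 CPM and to 1133 to 1496 CPM, while Slc17a6, the vesicular glutamate transporter of hypothalamic neurons, stood at 192 to 231 CPM and at 122 to 221 CPM. The 8 pan-neuronal markers summed to 4347 to 4584 CPM in the GFP-labelled and to 3768 to 4020 CPM in the Cre-labelled libraries. With libraries scaled to these markers, an alternative chosen after seeing the data, the log2 difference was -0.35 for Pdyn and -0.52 for Oprm1, 0.0060 for Penk, 0.018 for Oprd1 and 0.026 for Oprk1. This scaling moves the median of all genes to 0.26, and relative to that median Pdyn was at -0.60 and Oprm1 at -0.78. Of markers of neighbouring tissue, 9 thalamic genes summed to 669 to 911 and to 508 to 754 CPM. Those of 8 striatal genes, a region rich in Penk and Pdyn, summed to 169 to 176 and to 160 to 179 CPM. For 8 genes of other hypothalamic nuclei the sums were 340 to 669 CPM in the GFP-labelled and 159 to 544 CPM in the Cre-labelled group. Their part in the opioid values was not tested.

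The genes that carry opioid signals and make or break opioid peptides were read from 7 lists with 54 genes, all tested. Of all 20865 genes tested, 51.0% had a log2 difference below 0, with a median of -0.0058, and 2 passed the threshold. The 8 pan-neuronal markers were all below 0, with a median of -0.19. Of the 54 genes, 37 were below and 17 above 0, with a median log2 difference of -0.089, and 1 passed the threshold. That gene was Pcsk1n, which encodes proSAAS, an inhibitor of the prohormone convertase that cuts opioid precursors. Its level was 181 ± 8.96 FPKM in the GFP-labelled and 121 ± 5.18 FPKM in the Cre-labelled libraries (SD, n = 3), and it fell, with a log2 difference of -0.62 ± 0.056 (SE; edgeR adjusted p = 0.0495). It no longer passed in edgeR when any GFP-labelled library was left out (adjusted p = 0.0671, 0.301 and 0.143 for libraries 1 to 3), when Cre-labelled library 2 or 3 was (0.20 and 0.175), with a replicate block (0.0974), with no filter on low counts (0.123) or with scaling to totals only (0.0542). The same held for limma fits of FPKM (adjusted p = 0.0655 to 0.168), and the difference was between -0.65 and -0.57 in these fits. The call was kept in DESeq2 (adjusted p = 6.64e-23), with RLE scaling (edgeR adjusted p = 0.0477), in the robust fit (0.0202), without Cre-labelled library 1 (0.00879) and without the 3 libraries with testis, kidney or muscle transcripts (-0.53, 0.000625). Under scaling to pan-neuronal markers the difference was -0.35 (edgeR adjusted p = 0.0335). The 7 other processing genes did not pass. Pcsk1, the convertase that proSAAS inhibits, was at -0.36 ± 0.14, Pam, which amidates peptides, at -0.25 ± 0.056, Pcsk2, the convertase that makes the short opioid peptides, at -0.14 ± 0.11 and Cpe, the carboxypeptidase that trims them, at 0.0024 ± 0.11 in log2 (SE; edgeR adjusted p between 0.103 and 0.994).

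Downstream of the receptors no gene passed. The counts of genes below 0 here and in the next paragraph stand beside 51.0% of all genes. Of the 5 inhibitory G protein subunits 3 were below 0 (median -0.074), led by Gnao1 and Gnai1 at -0.22 ± 0.072 and -0.20 ± 0.061 in log2 (SE). Of the 10 effector channels and adenylyl cyclases 8 were below 0 (median -0.15), with Adcy8 and Adcy5, the cyclases that the receptors inhibit, at -0.31 ± 0.077 and -0.20 ± 0.056. The potassium channel subunit Kcnj5 was at 0.30 ± 0.10, the only channel gene of the list above 0. Its relative Kcnj6 was at -0.33 ± 0.14. Of the 6 receptor kinases and arrestins 5 were below 0 (median -0.095), with Arrb1 at -0.17 ± 0.055 and Arrb2, the arrestin known for mu receptor desensitisation, at 0.14 ± 0.079. Of the 10 RGS genes, which switch the G proteins off, 7 were below 0 (median -0.071), and Rgs8 and Rgs17 stood at -0.33 ± 0.056 and -0.23 ± 0.085. Adjusted p in edgeR for the genes named here ran from 0.0705 for Rgs8 to 0.411 for Arrb2.

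Receptor trafficking and peptide breakdown were mixed. Gprasp1, which sorts internalised opioid receptors to lysosomes, was at -0.26 ± 0.066, and Ackr3, an atypical receptor that scavenges opioid peptides, at 0.50 ± 0.20 in log2 (SE; edgeR adjusted p = 0.131 and 0.257), and 3 of the 6 genes of that list were below 0. Of the 9 peptidases 5 were below 0 (median -0.079). Ace and Lnpep were at -0.42 ± 0.11 and -0.30 ± 0.069 (edgeR adjusted p = 0.145 and 0.107), while Mme, the enkephalin-degrading neprilysin, was at 0.38 ± 0.29 and Anpep, an aminopeptidase that attacks enkephalin, at 0.41 ± 0.33 (0.540 and 0.564). In Mme the Cre-labelled libraries at 9.56, 12.6 and 12.3 TMM-normalised CPM overlapped the GFP-labelled ones at 11.8, 9.58 and 5.16. Anpep, Mme and Dpp4 are also genes of the kidney, whose transcripts stood out in Cre-labelled libraries 2 and 3, and the Dpp4 level was 1.08 to 2.01 TMM-normalised CPM in the GFP-labelled group and 1.97, 3.58 and 3.95 in the Cre-labelled libraries. The part of kidney transcripts in these values was not tested. Ace stood at 80.5 TMM-normalised CPM in GFP-labelled library 1, the one with testis transcripts, and at 59.3 and 62.6 in libraries 2 and 3. In the Cre-labelled libraries it stood at 50.3, 48.5 and 52.7, and the part of testis transcripts was not tested either.

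**Figure D5:**
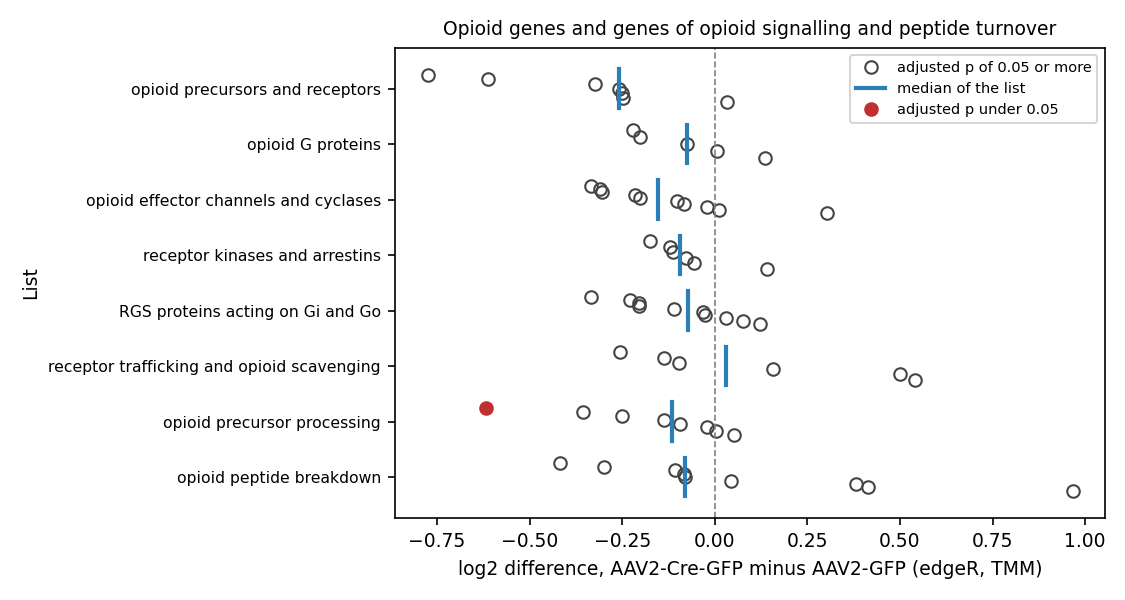
log2 difference (Cre-labelled minus GFP-labelled, edgeR) of the opioid precursors and receptors and of 54 genes in 7 lists of opioid signalling and peptide turnover; open circles are genes with an adjusted p of 0.05 or more, the filled circle is Pcsk1n and blue bars are list medians. The median is -0.26 for the opioid genes and lies between -0.15 and 0.030 for the 7 lists. Penk, Oprd1 and Oprk1 turn to just above 0 under scaling to pan-neuronal markers, which moves the median of all genes to 0.26.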

How the data were processed

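Poly(A) RNA libraries of the PVH were made with dUTP strand marking and molecular identifiers and sequenced as read pairs, per the labels' protocols. Cutadapt, HISAT2 and StringTie are named in the submitters' processing notes, with no versions; the use of strand or identifiers in counting is not given in the sources used here. The notes name mm9, but of 35024 gene identifiers shared with GENCODE M21 (GRCm38) 91.4% have identical positions in the table, so coordinates are given as GRCm38. The deposited counts are whole numbers per gene, and the deposited FPKM are proportional to them per gene length and library total. Columns were matched to samples by name.

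Counts were tested with edgeR 4.0.16 (quasi-likelihood, TMM, filterByExpr with a minimum count of 10, no covariates, two-sided, Benjamini-Hochberg over 20865 genes, threshold 0.05) in R 4.3.3. Means and SDs are of FPKM, SEs of log2 differences come from the F statistic, and total counts make counting error small beside the spread between libraries. All pairs of libraries differed by more than sampling noise (chi-square per gene at least 11.4). The test was tested on simulated data. Coding stretches and shared words were computed from GENCODE transcripts with Biopython 1.88. Alternatives were DESeq2 1.42.0, limma 3.58.1 on log2(FPKM + 0.5), with pseudocounts of 0.1 and 1 or no filter, other scalings and filters, a robust fit, a replicate block and left-out libraries. The rule for named genes took the 7 opioid genes, Pomc, the 2 nearest profiles per gene, overlapping genes and markers a result turns on. Of each pathway list it took genes past the threshold or else the 2 with the smallest p. Kcnj5, Kcnj6, Pcsk1, Pcsk2, Pam, Cpe, Mme, Anpep, Dpp4, Agrp, Npy, Tac2, Ghrh, Cartpt and Crh were added with their values in view. The members and lists were chosen with earlier results of these data known. A further coding stretch is not reported here.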

Additional observations from a re-analysis of the deposited data

How the results depend on the processing

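Over 18 alternatives for 7 opioid genes, 118 of 126 results kept their direction and their side of the threshold. Pdyn passed in DESeq2 (-0.61, adjusted p = 0.0159). The number of opioid genes past the threshold thus moved from 0 to 1 of 7, beside 8.03% of all genes DESeq2 tested. Without the 3 libraries with testis, kidney or muscle transcripts, the differences changed to -0.75 for Pdyn and -1.18 for Oprm1. That fit has 2 libraries against 1, and the cause was not tested. With 1 library left out the number of opioid genes past the threshold stayed at 0. The log2 differences were then -0.94 to -0.66 for Oprm1 and -0.79 to -0.44 for Pdyn. Under scaling to pan-neuronal markers Penk, Oprd1 and Oprk1 reversed to 0.0060, 0.018 and 0.026, as that scaling adds a like amount to all genes. Oprl1 ran from -0.076 (without GFP-labelled library 1) to 0.14 with 1 library left out, and reversed also without Cre-labelled library 1 (-0.0025). For Oprm1, a low gene, the limma difference shrank to -0.23 with a pseudocount of 1 FPKM.

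The number of all genes past the threshold was 2 in the main test, 1322 in DESeq2 (514 higher), 9 with RLE scaling, 22 with the robust fit, 1 with library totals only, 1 without the filter on low counts, 1 in limma without a filter, 2666 under pan-neuronal scaling (2644 higher) and 1059 without the 3 libraries; with 1 library left out it ran from 1 to 296, the latter without Cre-labelled library 1. Replicate numbers did not pair the libraries: deviations of same-numbered libraries correlated at -0.044, 0.012 and -0.022 across genes, and the fit with the replicate number as a block called 3 genes and 0 opioid genes (Pdyn at -0.59, Oprm1 at -0.76). Oprm1 had 118 to 293 counts per library, the fewest of the 7 and the depth at which counting error weighs most.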
